A study of Homo sapiens with 6 samples.

Results

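UGT8 encodes the enzyme that joins galactose to ceramide to form galactosylceramide. It was described here with 9 further enzymes of sphingolipid metabolism, UGCG, B4GALT5, ST3GAL5, GALC, ASAH1, SGMS1, SGMS2, SPTLC1 and SPTLC2. These 10 genes, of 19775 genes with an unambiguous probe set, were read through every probe set annotated to 1 of them alone, 27 in all. The RNA, measured on 6 oligonucleotide arrays, was that of HSC-3, an established line of human squamous carcinoma cells from the tongue. Of these, 3 arrays, labelled TAT-2, carried RNA of HSC-3 cells made to overexpress trypsin-2, a secreted serine protease. The other 3 carried RNA of HSC-3 cells transfected with a control vector, which per the labels make no trypsin-2. Both kinds of cell were cultured for 48 h in the same serum-containing medium with hydrocortisone, and replicate numbers 1 to 3 come from the sample titles. The labels do not say whether replicates were separate cultures or whether a line is 1 clone, so a p-value here covers the scatter among these 6 arrays alone, and that scatter may be technical. UGT8 was chosen because earlier results of these same data showed it higher on the TAT-2 arrays. Its values in that comparison, and those of the other 9 genes, are therefore given as a description without a p-value.

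Sphingolipids are built on ceramide, which is made in the endoplasmic reticulum from serine and palmitoyl-CoA by a pathway whose first step needs SPTLC1 and SPTLC2. Ceramide then takes one of several routes. UGT8 adds galactose to it, UGCG adds glucose, and SGMS1 and SGMS2 add phosphocholine to form sphingomyelin. Galactosylceramide and its sulfated form are best known as lipids of myelin, whereas glucosylceramide is the start of the gangliosides and, in the epidermis, a precursor of barrier ceramides. In lysosomes GALC removes galactose from galactosylceramide and ASAH1 splits ceramide itself.

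The promoters of 3 of these genes are shown because they stand for the galactose branch, the glucose branch and the breakdown of galactosylceramide. Each runs from 250 bases before to 50 bases after a transcription start, 5′ to 3′, from RefSeq on build GRCh38.p14. UGT8 lies at chr4:114598152-114598451 on the plus strand, UGCG at chr9:111896564-111896863 on the plus strand and GALC at chr14:87993133-87993432 on the minus strand, taking the first start listed for each gene. Capitals mark the E-box CACGTG and the GC box GGGCGG, searched on both strands.
UGT8: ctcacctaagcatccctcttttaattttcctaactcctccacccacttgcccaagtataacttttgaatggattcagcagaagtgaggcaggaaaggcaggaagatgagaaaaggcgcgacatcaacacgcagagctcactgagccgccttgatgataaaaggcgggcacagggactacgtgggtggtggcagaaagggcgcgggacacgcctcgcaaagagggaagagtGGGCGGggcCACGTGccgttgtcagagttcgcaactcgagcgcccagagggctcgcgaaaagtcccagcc
UGCG: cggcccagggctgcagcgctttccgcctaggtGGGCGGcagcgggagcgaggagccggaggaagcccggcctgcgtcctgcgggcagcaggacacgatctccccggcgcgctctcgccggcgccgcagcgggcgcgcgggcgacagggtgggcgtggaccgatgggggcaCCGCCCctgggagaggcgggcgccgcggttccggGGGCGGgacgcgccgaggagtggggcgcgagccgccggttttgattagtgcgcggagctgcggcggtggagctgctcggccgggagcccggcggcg
GALC: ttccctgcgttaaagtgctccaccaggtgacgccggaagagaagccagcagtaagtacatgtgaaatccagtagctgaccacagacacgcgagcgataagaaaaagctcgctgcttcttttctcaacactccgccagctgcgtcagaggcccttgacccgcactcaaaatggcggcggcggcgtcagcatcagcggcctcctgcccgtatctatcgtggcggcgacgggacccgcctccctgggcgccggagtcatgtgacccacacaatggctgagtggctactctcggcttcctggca
The UGT8 window held 1 E-box, which began at position -11 from the start, and 1 GC box just upstream of it. The UGCG window held no E-box and 3 GC boxes, and the GALC window held neither. Of 35116 promoters of the same length, 7.26% held an E-box and 45.0% a GC box. The table held promoters for 9 of the 10 genes, and the E-box was found in that of UGT8 alone. The GC box was found in 7 of the 9. Of the other motifs searched, CCAAT (34.6% of all promoters) was found in ST3GAL5 and SPTLC2, the AP-1 motif TGANTCA (7.71%) in SGMS2, and the cyclic AMP response element TGACGTCA (1.85%) in ST3GAL5. The share of G and C in the window was 56.3% for UGT8 and 60.0% for GALC, against 79.0% for UGCG. These matches describe letters in a window, and the motifs were picked with the sequences in view.

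The signals are linear MAS5 intensities, scaled by the authors to the same trimmed mean on each array (100.014 to 100.015 between percentiles 2 and 98). Array medians lay between 14.8 and 17.6. Principal component 1, with 45.6% of the variance over the tested probe sets, set both replicate 1 arrays apart from the other 4, and component 2, with 21.7%, separated the groups. In the sample descriptions the replicate 1 arrays of both groups are also written apart from the others, without a number. Signals annotated to the introduced gene went against the labels. The brighter PRSS2 probe set, for the trypsinogen of trypsin-2, gave 20.4, 13.8 and 14.6 on TAT-2 replicates 1, 2 and 3, against 19.6, 80.8 and 83.2 on vector replicates 1, 2 and 3. The other PRSS2 probe set gave 19.9, 17.9 and 19.5 on TAT-2 arrays, against 22.6, 38.0 and 54.5 on vector arrays, with no overlap. Both have names that mark them as able to read related sequences, and limma called neither. Their log2 fold changes were -1.12 and -0.59 (adjusted p = 0.467 and 0.56 in limma, and 0.0506 and 0.127 with the replicate number as a block). No source used here says whether they read the introduced sequence, so TAT-2 and vector below mean the arrays with those labels. All 5 measured squamous markers, KRT5, KRT14, SFN, CDH1 and EPCAM, passed the filter, with signals of 652 to 9210. Their summed signal was 21361 to 23243 on TAT-2 arrays and 19226 to 25897 on vector arrays. Limma called none of the 5, while 2 of the 5, the adhesion molecules CDH1 and EPCAM, fell once the replicate number was a block. Their log2 fold changes were -0.44 ± 0.16 and -0.45 ± 0.20 (SE; adjusted p = 0.00826 and 0.0166 with the block in limma, and 0.527 and 0.642 without it). Here and below, each SE is that of the fit without the block. The keratins KRT5, at 0.31 ± 0.32, and KRT14, at 0.22 ± 0.18, and the epithelial protein SFN, at -0.02 ± 0.07, were called in neither fit (adjusted p = 0.133, 0.180 and 0.914 with the block in limma). Of the 6 fibroblast markers 2 passed, and the sums of all 6 were 130.5 to 137 on TAT-2 arrays and 112 to 136 on vector arrays. Of the 5 measured genes of the leukocyte list 2 passed, CD14 and HBB, which is a globin gene of red cells. The sums of all 5 were 54.0 to 126 on TAT-2 arrays and 59.0 to 77.0 on vector arrays. Limma called no gene of the fibroblast or leukocyte list, with or without the block. HBB stood at 0.20 ± 0.18. CD14 stood at 0.65 ± 0.43, with log2 differences of 0.25, 0.81 and 0.88 in replicates 1, 2 and 3 (adjusted p = 0.835 in limma, and 0.0668 with the block). A probe set passed the filter when its mean log2(signal + 16) over the 6 arrays reached the median of all probe sets, a signal of 15.2. Of the 27 probe sets of the sphingolipid enzymes, 23 passed, for 9 of the 10 genes. Both GALC probe sets, 1 of ASAH1 and 1 of SPTLC2 did not.

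UGT8, the galactosyltransferase of ceramide, was higher on every TAT-2 array by both of its probe sets. The brighter probe set (228956_at) gave 128, 135 and 160 on TAT-2 replicates 1, 2 and 3, against 19.6, 25.1 and 34.6 on vector replicates 1, 2 and 3. The lowest TAT-2 array thus read well above the highest vector array, and the groups did not overlap. Group means were 141 ± 16.6 on TAT-2 arrays and 26.4 ± 7.55 on vector arrays (SD, n = 3 each). The log2 fold change was 1.90 ± 0.17 (SE) on the scale of log2(signal + 16), which understates the change of dim probe sets. By replicate number the log2 difference was 2.02, 1.88 and 1.80 in replicates 1, 2 and 3, so that replicate 1, which stands apart as a whole, gave a like difference. Among 12151 tested genes, each read from its brightest probe set, this was the second highest log2 fold change (rank 2).

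The dimmer UGT8 probe set (208358_s_at) gave 49.9, 65.6 and 69.7 on TAT-2 arrays, against 3.09, 19.2 and 20.5 on vector arrays, in the order of replicates 1 to 3. Again no vector array reached a TAT-2 array, and the vector mean, 14.2 ± 9.68, lay below the filter level while the TAT-2 mean was 61.7 ± 10.4 (SD, n = 3 each). Its log2 fold change was 1.41 ± 0.26 (SE), with 1.79 in replicate 1 and 1.21 and 1.23 in replicates 2 and 3. Vector replicate 1, at 3.09, was the lowest of the 6 arrays by this probe set. Over the 6 arrays the log2 values of the 2 probe sets correlated with r = 0.95, which includes the difference between the groups.

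**Figure D1:**
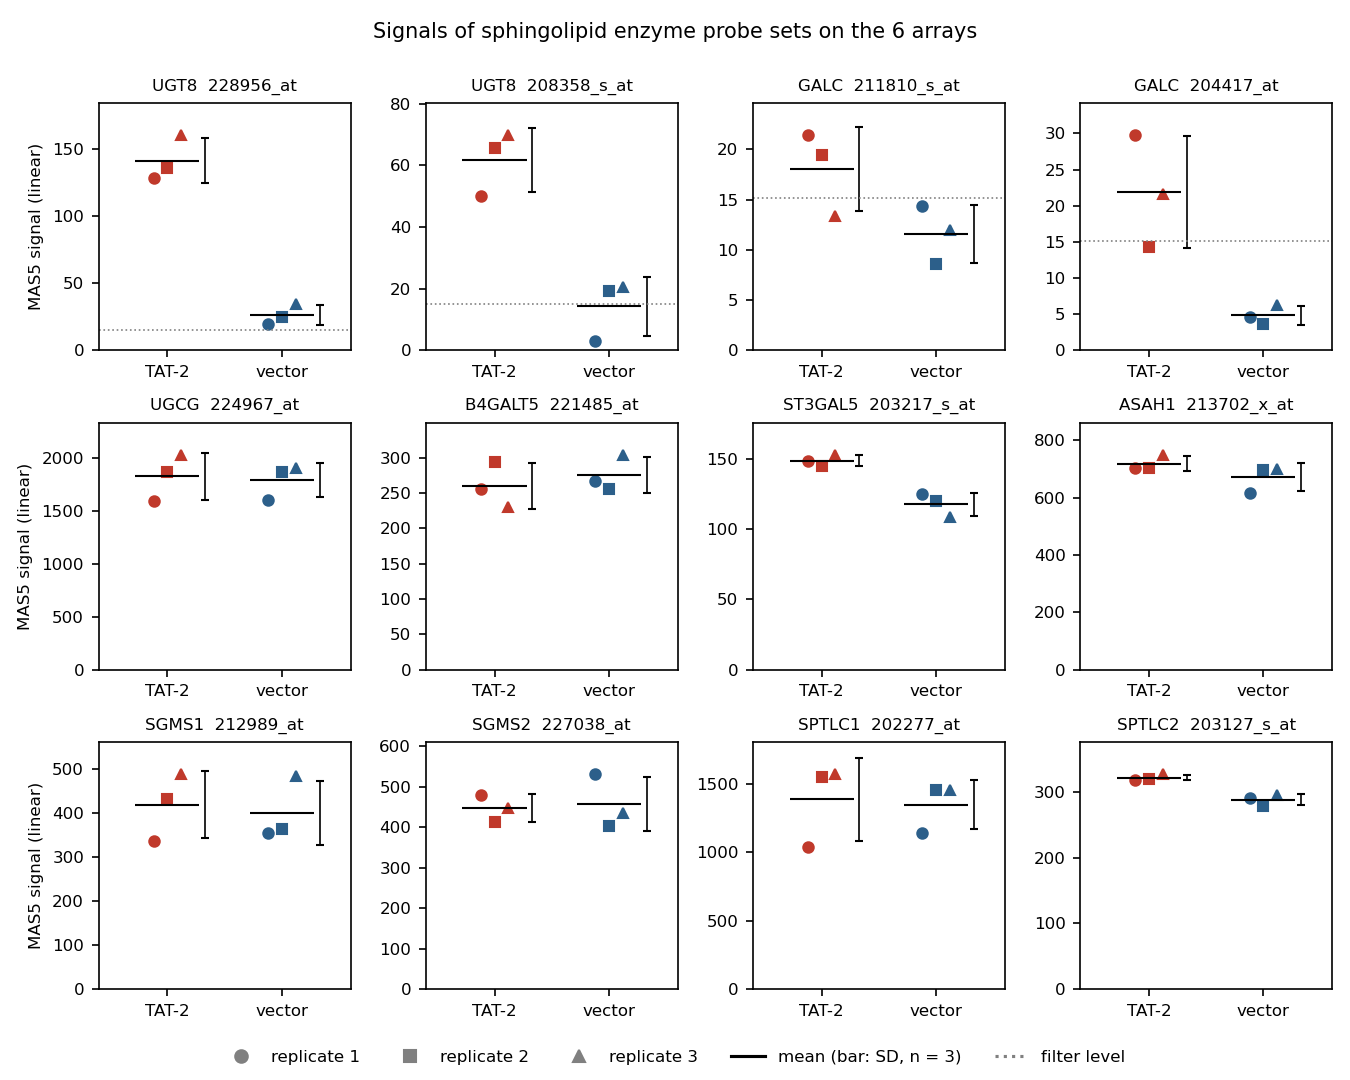
Linear MAS5 signal of both UGT8 and both GALC probe sets and of the brightest probe set of the other 8 genes, on 3 TAT-2 arrays (red, left) and 3 vector arrays (blue, right). Symbols mark replicate numbers, lines the group means and bars the SD, and the dotted line in the UGT8 and GALC panels is the filter level of 15.2. UGT8 on TAT-2 arrays reads 128 to 160 by its brighter probe set, against 19.6 to 34.6 on vector arrays.

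UGT8 is best known from the myelinating cells, oligodendrocytes and Schwann cells. Markers of those cells were therefore read beside it. Of 8 with a probe set, only MBP and CNP passed the filter, and MOG, MAG, MOBP, SOX10, OLIG2 and MAL did not. The summed signal of the 8 was 409.7 to 445 on TAT-2 arrays and 410.1 to 470.2 on vector arrays, and limma called neither MBP nor CNP, with or without the replicate number as a block. The part of such cells in the UGT8 result was not tested.

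GALC, the lysosomal galactosidase that takes apart what UGT8 makes, was dim. Its probe set 204417_at gave 29.7, 14.3 and 21.6 on TAT-2 replicates 1, 2 and 3, against 4.69, 3.66 and 6.23 on vector replicates 1, 2 and 3. The groups did not overlap, with means of 21.9 ± 7.74 on TAT-2 arrays and 4.86 ± 1.29 on vector arrays (SD, n = 3 each). Its log2 fold change was 0.84 ± 0.20 (SE) when fitted without a filter. Every vector array lay below the filter level of 15.2, as did TAT-2 replicate 2, so the size of this difference depends on how the floor is treated.

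The other GALC probe set (211810_s_at) gave 21.4, 19.4 and 13.3 on TAT-2 arrays, against 14.3, 8.56 and 11.96 on vector arrays. Here the groups overlapped, because TAT-2 replicate 3 read below vector replicate 1. Its log2 fold change was 0.30 ± 0.19 (SE). Both probe sets had the same sign, and neither entered the test.

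UGCG, the glucosyltransferase that competes with UGT8 for ceramide, was bright and nearly the same in both groups. Its brightest probe set (224967_at) gave 1589, 1862 and 2029 on TAT-2 replicates 1, 2 and 3, against 1606, 1862 and 1899 on vector replicates 1, 2 and 3. The lowest array of each group was replicate 1, and the groups overlapped throughout. The log2 fold change was 0.03 ± 0.11 (SE), and the other 2 UGCG probe sets stood at -0.03 ± 0.21 and 0.11 ± 0.15. B4GALT5, which adds galactose to glucosylceramide to make lactosylceramide, stood at -0.08 ± 0.13 and 0.01 ± 0.11 by its 2 probe sets, with overlap in both.

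ST3GAL5, the sialyltransferase that makes the ganglioside GM3 from lactosylceramide, was read by 1 probe set. It gave 148, 145 and 153 on TAT-2 replicates 1, 2 and 3, against 125, 120 and 108 on vector replicates 1, 2 and 3. Every TAT-2 array read above every vector array, but the distance was small beside that of UGT8. That gave a log2 fold change of 0.30 ± 0.12 (SE), with 0.22, 0.25 and 0.44 in replicates 1, 2 and 3.

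The sphingomyelin synthases showed no common shift. SGMS1, the synthase of the Golgi, gave 338, 433 and 489 on TAT-2 arrays, against 354, 363 and 485 on vector arrays, in the order of replicates 1 to 3. Its groups overlapped, and its log2 fold change was 0.06 ± 0.17 (SE). SGMS2, the synthase found also at the plasma membrane, stood at -0.02 ± 0.13 by its brightest probe set, and at 0.12 ± 0.20 and 0.14 ± 0.13 by the others. The dimmest of these 3 (242963_at) had no overlap, with 70.8 to 80.7 on TAT-2 arrays and 63.0 to 69.4 on vector arrays.

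SPTLC1 and SPTLC2, subunits of serine palmitoyltransferase, were close to equal in the groups. SPTLC1 gave 1038, 1545 and 1568 on TAT-2 replicates 1, 2 and 3, against 1139, 1450 and 1450 on vector replicates 1, 2 and 3, by its brightest probe set. Replicate 1 was the lowest in both groups, by more than the groups differed, and the log2 fold change was 0.02 ± 0.17 (SE). The other SPTLC1 probe sets stood at 0.13 ± 0.14 and -0.04 ± 0.15. SPTLC2 gave 319, 320.4 and 327 on TAT-2 arrays, against 290.5, 279 and 296 on vector arrays, by its brightest probe set, with no overlap. Its log2 fold change was 0.15 ± 0.10 (SE), while its other 3 tested probe sets, which all overlapped, stood between -0.01 and 0.07.

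The probe sets of ASAH1, acid ceramidase, disagreed in sign. The brightest (213702_x_at) gave 705, 702 and 749.9 on TAT-2 replicates 1, 2 and 3, against 616, 697 and 701 on vector replicates 1, 2 and 3, a log2 fold change of 0.10 ± 0.10 (SE). Its groups were separated only by the step between 702 on TAT-2 replicate 2 and 701 on vector replicate 3, and its name ending marks it as able to read related sequences. A further probe set (213902_at) gave 177, 214 and 269 on TAT-2 arrays and 245, 293 and 295 on vector arrays, a log2 fold change of -0.33 ± 0.16, with overlap. The other 2 tested ASAH1 probe sets stood at 0.14 ± 0.12 and 0.25 ± 0.18, both with overlap.

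**Figure D2:**
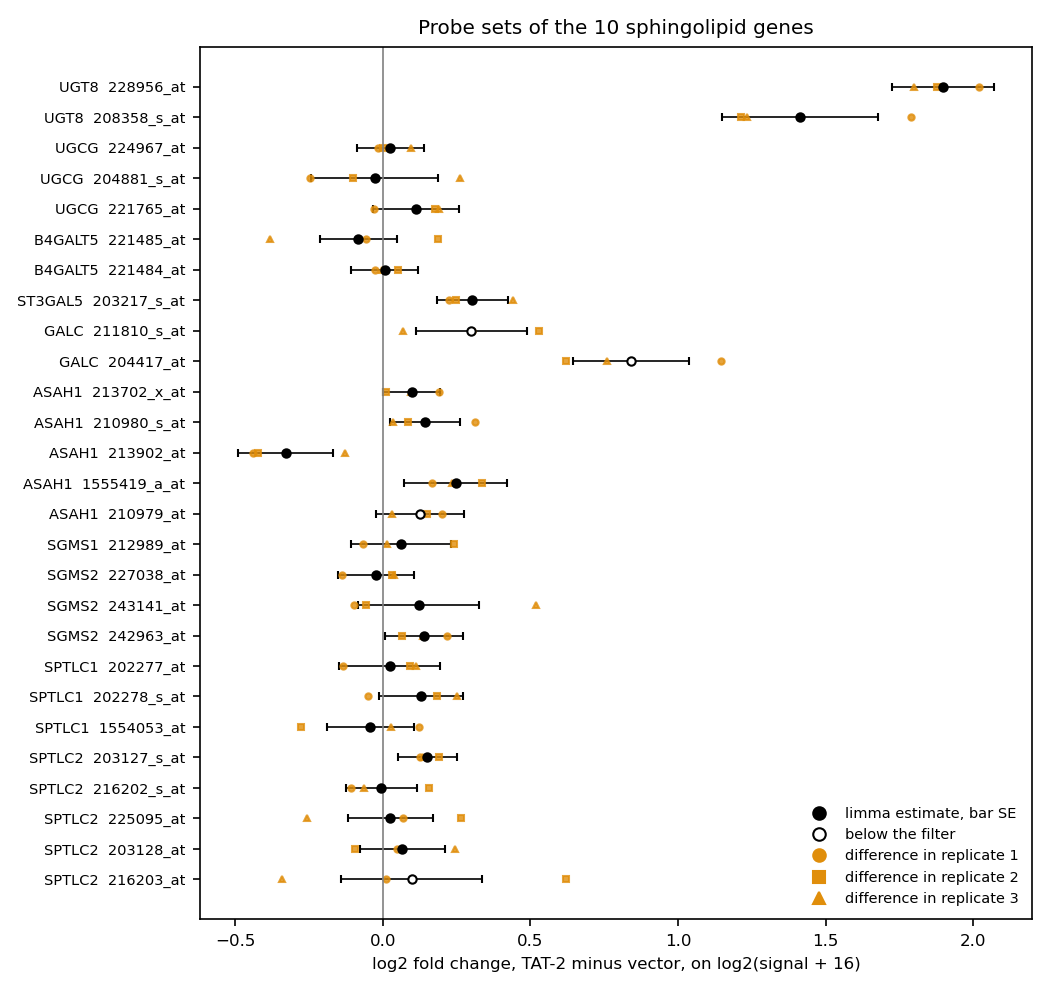
Log2 fold change, TAT-2 minus vector, of all 27 probe sets of the 10 genes on the scale of log2(signal + 16). Black points are limma estimates with SE bars, open where the probe set lay below the filter, and orange symbols are the differences within replicates 1, 2 and 3. Both UGT8 probe sets, at 1.90 and 1.41, lie apart from the tested probe sets of the other genes, which run from -0.33 to 0.30.

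Across the tested probe sets of the other genes, 21 in number, the log2 fold change ran from -0.33 to 0.30. Of all 23 tested probe sets of the 10 genes, 17 lay above 0 and 6 below, with a median of 0.07, beside a median of -0.01 over all 27307 tested probe sets. The groups did not overlap in 6 of the 23, always with TAT-2 higher. Of all tested probe sets, 14.1% had no overlap and 6.73% had none with TAT-2 higher. The 6 were both UGT8 probe sets, high by the choice of that gene, and 1 each of ST3GAL5, ASAH1, SGMS2 and SPTLC2. The median and the counts above and below 0 also include both UGT8 probe sets. Limma, with Benjamini-Hochberg adjustment at 0.05, called 1 of the 9 tested genes, UGT8, where it called 0.0576% of all genes. With the replicate number as a block it again called UGT8 alone, where it called 6.96% of all genes. By probe set it called 1 of the 23, where it called 0.0293% of all, and 2 with the block, both of UGT8, where it called 5.21% of all. The dimmer of these 2 passed the filter only through its signals on TAT-2 arrays. The UGT8 call was lost when TAT-2 replicate 2, TAT-2 replicate 3, vector replicate 2 or vector replicate 3 was left out, and each of these left 0 called genes in all. Because UGT8 was chosen in this comparison, nothing is read from these counts.

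The rest of the pathway was read from 9 lists of sphingolipid and related genes outside the 10, of 107 genes in all. Of these, 88 had a probe set of 1 symbol and 64 passed the filter. Limma with the group as its one term called 0 of the 64. An unadjusted p under 0.05 was found for 5 of them, beside 9.38% of all tested genes. With the replicate number as a block ORMDL2, NEU1 and S1PR3 rose and CTSA fell, 4 of 64 or 6.25%, against 6.96% of all genes (3.5% higher and 3.46% lower), so the share was near that of the array as a whole. The median log2 fold change of the 64 was 0.06, beside -0.0025 over all tested genes. A block with no intensity trend of the variance called 0 genes on the whole array, these 4 included.

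Among 11 tested genes of serine palmitoyltransferase control and new ceramide synthesis, 1 rose with the block and none fell. ORMDL2, one of the proteins that restrain serine palmitoyltransferase, gave 1408, 1379 and 1592 on TAT-2 replicates 1, 2 and 3, against 1040, 1119.5 and 1109 on vector replicates 1, 2 and 3. The groups did not overlap, and the log2 fold change was 0.41 ± 0.09 (SE; adjusted p = 0.202 in limma, and 0.00536 with the block). Its relatives ORMDL1, at 0.21 ± 0.12, and ORMDL3, at 0.33 ± 0.18, were not called (adjusted p = 0.129 and 0.171 with the block in limma), and were picked for mention after their values were seen. The ceramide synthases CERS2 to CERS6 and the desaturase DEGS1 stood between -0.08 and 0.37, with none called.

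In the galactosylceramide and sulfatide list, 4 genes were tested and none was called by its brightest probe set. PSAP, the precursor of the saposins that present such lipids to lysosomal enzymes, gave 1938, 1609 and 1571 on TAT-2 replicates 1, 2 and 3, against 1564, 1491 and 1219 on vector replicates 1, 2 and 3, with no overlap. Its log2 fold change was 0.26 ± 0.12 (SE; adjusted p = 0.684 in limma, and 0.0567 with the block). A second PSAP probe set, at 0.31 ± 0.13, passed with the block (adjusted p = 0.0195 in limma) and not without it (adjusted p = 0.608). ARSA, the sulfatidase, stood at 0.35 ± 0.30 (adjusted p = 0.899 in limma), and GAL3ST1, which makes sulfatide from the product of UGT8, lay below the filter, with 3.79 its highest signal on TAT-2 arrays and 1.72 on vector arrays.

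In the list of lysosomal glycolipid breakdown, 1 of 6 tested genes rose and 1 fell with the block. NEU1, the lysosomal sialidase, gave 292, 247 and 238 on TAT-2 replicates 1, 2 and 3, against 206, 198 and 196 on vector replicates 1, 2 and 3. All TAT-2 arrays read above all vector arrays, and the log2 fold change was 0.34 ± 0.12 (SE; adjusted p = 0.508 in limma, and 0.0415 with the block). CTSA, the protective protein that holds NEU1 in an active lysosomal complex, gave 506, 418 and 348 on TAT-2 arrays, against 598, 552 and 472 on vector arrays, in the same order. Its groups overlapped, because replicate 1 was the highest in each, but TAT-2 was the lower within all 3 replicate numbers. The log2 fold change of CTSA was -0.35 ± 0.15 (SE; adjusted p = 0.639 in limma, and 0.0180 with the block).

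Among 14 tested ceramidases and genes of sphingosine phosphate, 1 rose with the block. S1PR3, a receptor of sphingosine-1-phosphate, gave 101, 117 and 113 on TAT-2 replicates 1, 2 and 3, against 44.0, 77.1 and 87.6 on vector replicates 1, 2 and 3. The groups did not overlap, though vector replicate 1 was the lowest by far and the log2 difference was 0.96 in replicate 1, 0.52 in replicate 2 and 0.32 in replicate 3. S1PR3 had a log2 fold change of 0.60 ± 0.21 (SE; adjusted p = 0.506 in limma, and 0.0315 with the block). A dimmer S1PR3 probe set, at 0.26 ± 0.23, was not called (adjusted p = 0.611 with the block in limma). Without both replicate 1 arrays the blocked fit called 2 of the pathway genes, ORMDL2 and CTSA, and not NEU1 or S1PR3.

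The other lists held no called gene. Of 8 tested genes of sphingomyelin and ceramide phosphate, SAMD8, a relative of the sphingomyelin synthases, stood at 0.25 ± 0.12 and SMPD2, a neutral sphingomyelinase, at -0.52 ± 0.25 (SE; adjusted p = 0.674 and 0.688 in limma). Of 4 genes of glucosylceramide and lactosylceramide, GBA2, a glucosylceramidase outside the lysosome, stood at 0.20 ± 0.16 and B4GALT6, a second lactosylceramide synthase, at -0.17 ± 0.18 (adjusted p = 0.893 and 0.931 in limma). Of 11 genes of ganglioside, globoside and lactoside synthesis, B3GALNT1, the globoside synthase, had lower signals on TAT-2 arrays with no overlap by all 3 of its probe sets (log2 fold changes of -0.30 ± 0.13, -0.31 ± 0.14 and -0.41 ± 0.19). None of these 3 passed the test (adjusted p = 0.635, 0.640 and 0.645 in limma). B4GALNT1, which makes the gangliosides GM2 and GD2, stood at 0.21 ± 0.16 (adjusted p = 0.877 in limma). Of 6 genes of UDP-sugar supply, GALT, of galactose metabolism, stood at 0.29 ± 0.13 and UXS1, which makes UDP-xylose, at -0.20 ± 0.13 (adjusted p = 0.635 and 0.835 in limma). Of 14 other listed UDP-glycosyltransferases of the UGT family, enzymes that conjugate drugs and steroids, 8 had a probe set of 1 symbol. The 6 without one were not read. None of the 8 passed the filter, with signals from 0.167 to 14.8.

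**Figure D3:**
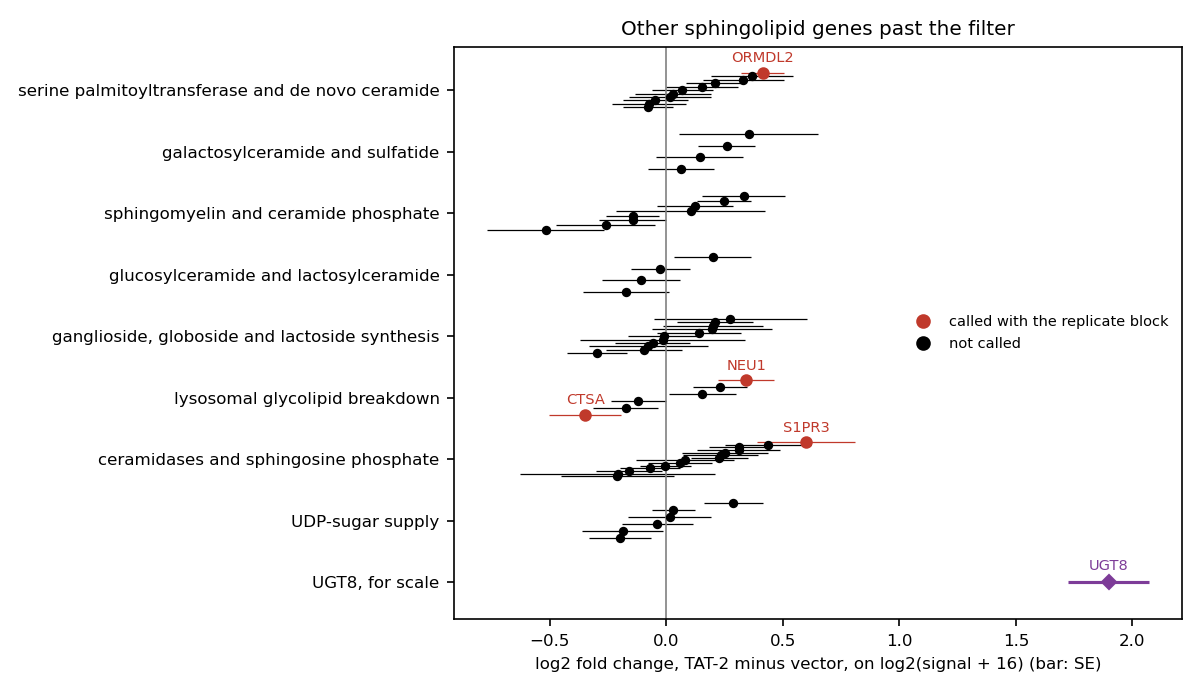
Log2 fold change, TAT-2 minus vector, with SE bars, for each tested gene outside the 10, read from its brightest probe set and grouped by list, with UGT8 at the bottom for scale. Red points with names are the 4 genes called with the replicate block, ORMDL2, NEU1, CTSA and S1PR3. The 64 genes run from -0.52 to 0.60, and UGT8 stands at 1.90.

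Position on the chromosome, which the choice of genes did not use, was compared next. UGT8 lies on chromosome 4, and of the 5 tested genes on each side limma called 0 of 10 in either fit. An unadjusted p under 0.05 without the block was found for 1 of them, METTL14, beside 9.38% of all tested genes. On the near side of lower coordinates ARSJ, an arylsulfatase, stood at 0.15 ± 0.13 (SE) and CAMK2D, a calmodulin-dependent kinase, at 0.15 ± 0.14. A probe set annotated to MIR302B stood at -0.04 ± 0.23, LARP7, a protein of the 7SK RNA complex, at 0.00 ± 0.10 and ZGRF1 at -0.16 ± 0.18. On the other side METTL14, of the RNA adenosine methyltransferase, stood at -0.33 ± 0.12 and SEC24D, a coat protein of vesicles, at -0.25 ± 0.12, both opposite in sign to UGT8. SYNPO2 stood at 0.08 ± 0.15, USP53 at 0.05 ± 0.13 and ARLN at 0.16 ± 0.15. Their adjusted p in limma lay between 0.544 and 0.998, and with the block between 0.0781, for METTL14, and 0.991, for LARP7. METTL14 and SEC24D had lower signals on TAT-2 arrays with no overlap, and the others overlapped. Of all tested probe sets, 14.1% had no overlap.

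**Figure D4:**
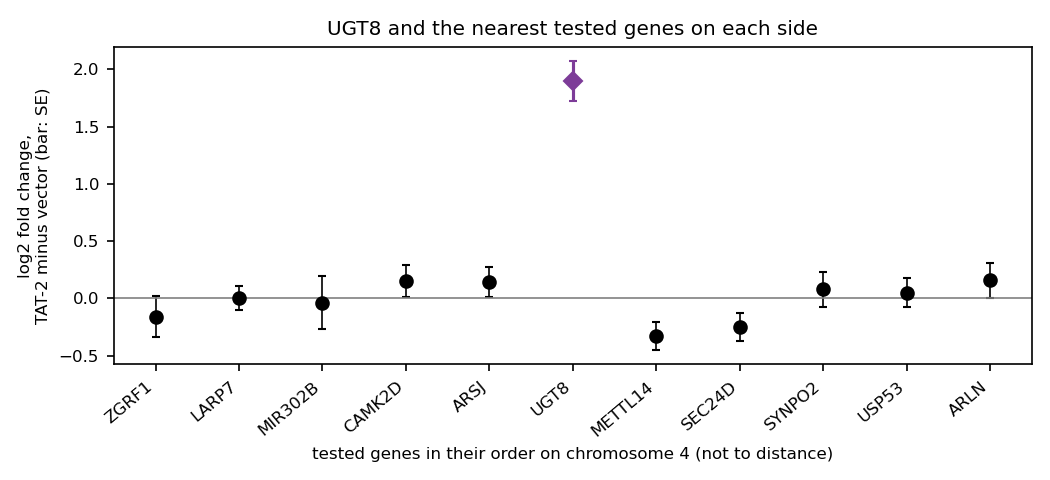
Log2 fold change, TAT-2 minus vector, with SE bars, of UGT8 (purple) and the 5 nearest tested genes on each side, in gene order on chromosome 4 and not to distance. The 10 neighbours lie between -0.33 and 0.16 and UGT8 at 1.90.

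SGMS2 lies on the same chromosome, with 19 tested genes between it and UGT8. LEF1, a transcription factor of the Wnt pathway and the third tested gene past SGMS2, fell with the block, with means of 19.6 on TAT-2 arrays and 64.4 on vector arrays and a log2 fold change of -1.17 ± 0.19 (SE; adjusted p = 0.0881 in limma, and 0.00267 with the block). Beside GALC on chromosome 14, FLRT2, a membrane adhesion protein (0.52 ± 0.14, adjusted p = 0.00681 with the block in limma), and STON2, of endocytosis (0.30 ± 0.13, adjusted p = 0.0440), rose, and TTC8, of the ciliary BBSome (-0.39 ± 0.10, adjusted p = 0.0138), fell. Beside SGMS1 on chromosome 10 the genes TIMM23B, ERCC6 and DKK1, a Wnt inhibitor, rose with the block, at 0.33 ± 0.11, 0.39 ± 0.11 and 0.28 ± 0.12 (adjusted p = 0.0317, 0.0386 and 0.0297 in limma). Beside UGCG on chromosome 9, PTGR1, a prostaglandin reductase, fell with the block (-0.37 ± 0.20, adjusted p = 0.00945 in limma). The SE given for these called neighbours is that of the fit without the block. For PTGR1 the SE with the block was 0.07. Over all 10 genes, 8 of 100 neighbours (8.0%) were called with the block, against 6.96% of all genes, and limma without it called 0, with LEF1 nearest to the threshold. An unadjusted p under 0.05 without the block was found for 9 of the 100, beside 9.38% of all tested genes.

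The genes whose log2 values over the 6 arrays were most like those of UGT8 were UQCR10, a subunit of respiratory complex III, CSTF3, of messenger RNA cleavage, MLLT11, MEST, CACHD1 and MCTP1. Pearson's r ran from 0.989 for MCTP1 to 0.997 for UQCR10 over 6 arrays. All 6 genes had higher signals on every TAT-2 array than on any vector array, so each r includes the difference between the groups. UQCR10 gave 4678, 4835 and 4952 on TAT-2 replicates 1, 2 and 3, against 3397, 3526 and 3814 on vector replicates 1, 2 and 3, so its arrays stood in the same order as those of UGT8. In all, 95 tested genes had r above 0.95 with UGT8. Of the other sphingolipid enzymes, by their brightest probe sets, r was 0.96 for SPTLC2, 0.88 for ST3GAL5, 0.71 for ASAH1 and 0.66 for GALC. It was 0.30 for SGMS1, 0.24 for UGCG, 0.17 for SPTLC1, -0.18 for SGMS2 and -0.30 for B4GALT5. All of these r values share the same 6 arrays and the shift of replicate 1.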

How the data were processed

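The deposited table gives 1 linear intensity per probe set and array, which the authors computed with MAS5 according to the submitters' processing notes (no version given). Of 54675 probe sets, 62 are controls, 41091 have 1 gene symbol and 1801 several, which name no gene here. Symbols were updated by gene identifier (41037 matched). Signals were transformed as log2(signal + 16), probe sets with a mean at or above the median were kept (27307 probe sets, 12151 genes), and TAT-2 was compared with vector in limma 3.58.1 (R 4.3.3; lmFit, eBayes with an intensity trend, group as the only term), with Benjamini-Hochberg adjustment at 0.05 over all tested probe sets. A gene was read from its probe set of highest mean. No p-value is given for the 10 sphingolipid enzymes.

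The enzymes and lists were chosen with earlier results of these data known. Named are all probe sets of the enzymes, up to 6 called genes of each list in either fit or else the 2 of smallest p, the 5 tested genes on each side of UGT8, called neighbours of the others, and the 6 genes most like UGT8. ORMDL1, ORMDL3, GAL3ST1, the ceramide synthases and DEGS1 were added after their values were seen. After subtraction of group means, TAT-2 and vector arrays of one number correlated (r = 0.64, 0.39 and 0.25 for replicates 1, 2 and 3), so the replicate number from the titles was also fitted as a block. Differently numbered arrays 2 and 3 reached 0.32 and 0.20, and no label gives the meaning of a number. Each SE printed is that of the fit without the block, also beside an adjusted p with the block. In data simulated on the 27307 probe sets without a block, limma recovered 0, 99 and 184 of 200 changes of log2 0.5, 1.0 and 2.0. The simulated noise was independent between arrays and lacked the shift shared by the replicate 1 arrays. These counts therefore do not give the power in the real data. Precision is limited by having 3 arrays a group. Alternatives were other pseudocounts (1 and 64), filters, normalizations, variance models, summaries of probe sets, the block and arrays left out. Probe sets without a symbol were not used here.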

Additional observations from a re-analysis of the deposited data

How the results depend on the processing

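The 107 pathway genes outside the 10 enzymes gave 0 calls in limma under all settings without the block, and with the replicate block 4, with the block and a pseudocount of 1 again 4, with the block and gene-wise averaged probe sets 4, with the block and no replicate 1 arrays 2, and with the block and no filter 1 (ORMDL2). UGT8 was the 1 called enzyme under every setting but the block without the intensity trend (0) and the arrays left out, where the count ran from 0 to 1. UGT8 was chosen for its difference on these arrays, so neither its calls nor its direction are a sign of stability. Over all genes the count of 7 became 846 with the block, 486 with the block without both replicate 1 arrays, 775 with the block and a pseudocount of 1, 775 with the block and the mean of probe sets, 270 with the block and no filter, 0 with the block and no intensity trend, 4 without the trend alone, 11 with quantile normalization, 20 with array medians centred, 29 with the mean of probe sets and 196 without both replicate 1 arrays. It ran from 0 to 22 with 1 array left out. The causes were not tested. The log2 fold change of the brighter UGT8 probe set stayed positive in all 21 alternatives, from 1.18 with a pseudocount of 64 to 2.40 with 1. That of the dimmer one stayed positive in all 18 that tested it, from 0.69 to 2.36. The filter, the variance model and, with equal groups, the block cannot change a fold change, so alternatives that differ only in these do not test it. The GALC probe sets passed no filter under any pseudocount tried, so their values rest on fits with no filter. Low signal limits GALC and the vector arrays of both UGT8 probe sets, most of all the dimmer one. The size of the UGT8 change therefore depends on the pseudocount.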
